A study of Mus musculus with 10 samples.

Results

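Genes that run cell division were followed through RNA sequencing of mouse pancreatic islets, the clusters of hormone-secreting cells of the pancreas. The set held 49 genes, 26 of mitosis and 23 of S phase (DNA replication), taken by symbol from a table of 24475 genes; the rule names genes by what they do and uses no measured value, but the set was drawn up with earlier results of these data known. There were 5 libraries from C57BL/6 mice treated with REGN1193, a blocking antibody against GCGR, the receptor for glucagon, and 5 libraries from C57BL/6 mice given an isotype control antibody. Replicates carry the numbers 1 to 5 with the antibody and 6 to 10 with the isotype control. The series concerns alpha cell hyperplasia, the overgrowth of glucagon-secreting cells when their hormone's receptor is blocked, and the comparison asks whether transcripts of the division machinery differ between the groups. Dose, duration, sex and age are not in the labels, and nothing in them says that each library came from its own animal, so each p-value speaks to the spread among these libraries alone, which may be technical. Whole islets were profiled, so fewer cells of a type and less RNA per cell cannot be told apart.

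A dividing cell first switches on E2F factors and cyclin E, which raise the genes that load MCM helicases on origins, supply nucleotides and copy DNA. Later, cyclin A and cyclin B with the kinase CDK1 drive mitosis, and kinases, motor proteins and kinetochore proteins separate the chromosomes before CDC20 and UBE2C mark the cyclins for destruction. Adult mouse islet cells divide rarely, so these transcripts are usually scarce in islets, and in whole islets macrophages, lymphocytes, duct cells, endothelium and fibroblasts can add to them. The late genes are known to be held by a CCAAT box and a cell cycle homology region (CHR) in their promoters, and the early genes by E2F sites.

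Promoters of the 2 classes carried those elements to different extents. RefSeq windows of GRCm38.p6, from 250 bases before to 50 bases after the start site, were found for 22 mitosis and 18 S phase genes. The CHR letters TTTGAA, searched on both strands, occurred in 17 of 22 mitosis genes (77.3%) and in 3 of 18 S phase genes (16.7%), beside 20.2% of the 27025 genes with a window in that table. The letters CCAAT, on either strand, occurred in 18 of 22 mitosis genes (81.8%) and 11 of 18 S phase genes (61.1%), beside 41.1% of all genes. Both elements stood in the same window in 15 mitosis genes (68.2%), in 2 S phase genes (11.1%) and in 7.97% of all genes. The E2F words TTTCCCGC, TTTCGCGC, TTTGCCGC and TTTGGCGC, on both strands, gave the opposite picture, with 1 of 22 mitosis genes (4.55%), 8 of 18 S phase genes (44.4%) and 2.6% of all genes. These words can overlap one another, and matches of different elements overlapped in 1 gene. The windows of the set were richer in G and C (median 58.3% for mitosis and 58.5% for S phase) than those of all genes (52.7%), and these shares are descriptions with no test.

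The windows of 4 genes that return below are printed 5′ to 3′ on the gene's strand, with every match of the CHR, CCAAT or E2F letters or of their reverse complements in capitals. Ccnb2 (chr9:70421505-70421804, minus strand) and Cdk1 (chr10:69352863-69353162, minus strand) had the smallest p of the mitosis genes, Mki67 (chr7:135716330-135716629, minus strand) the highest fold of the mitosis genes, and Mcm6 (chr1:128359656-128359955, minus strand) shows the E2F words of an S phase gene.
Ccnb2: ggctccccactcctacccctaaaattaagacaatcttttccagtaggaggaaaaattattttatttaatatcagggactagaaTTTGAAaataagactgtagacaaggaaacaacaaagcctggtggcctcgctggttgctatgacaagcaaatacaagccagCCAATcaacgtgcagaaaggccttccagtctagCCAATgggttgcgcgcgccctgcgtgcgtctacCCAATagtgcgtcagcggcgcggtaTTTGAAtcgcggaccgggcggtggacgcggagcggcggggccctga
Cdk1: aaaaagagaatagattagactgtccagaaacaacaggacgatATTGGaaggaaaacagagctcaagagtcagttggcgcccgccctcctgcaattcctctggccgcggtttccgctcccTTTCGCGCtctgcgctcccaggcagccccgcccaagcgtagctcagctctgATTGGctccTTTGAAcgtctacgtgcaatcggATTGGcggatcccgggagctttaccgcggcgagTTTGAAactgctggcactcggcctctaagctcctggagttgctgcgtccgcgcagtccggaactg
Mki67: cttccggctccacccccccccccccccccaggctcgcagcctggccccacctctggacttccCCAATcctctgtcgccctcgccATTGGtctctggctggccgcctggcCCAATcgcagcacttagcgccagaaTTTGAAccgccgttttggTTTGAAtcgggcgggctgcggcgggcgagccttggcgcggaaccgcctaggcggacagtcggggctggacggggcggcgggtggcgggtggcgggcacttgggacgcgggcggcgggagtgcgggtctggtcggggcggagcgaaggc
Mcm6: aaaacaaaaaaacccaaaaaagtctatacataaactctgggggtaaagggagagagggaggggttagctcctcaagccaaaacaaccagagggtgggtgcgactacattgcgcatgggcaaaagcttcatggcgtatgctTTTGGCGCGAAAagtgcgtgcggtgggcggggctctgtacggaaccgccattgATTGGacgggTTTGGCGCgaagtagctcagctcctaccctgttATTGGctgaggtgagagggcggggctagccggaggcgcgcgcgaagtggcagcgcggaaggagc
In Ccnb2 the CCAAT boxes begin 87, 54 and 21 bases before the start site. Mki67 holds 2 CHR elements, which begin 116 and 98 bases before it. In Mcm6 a pair of E2F words on opposite strands overlap, with the outer one beginning 110 bases before the start, and a further E2F word begins 47 bases before it.

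The deposited values were RPKM, in which reads are scaled by the length of the transcript and the depth of the library, and were compared as log2(RPKM + 0.5) for the 13450 genes that averaged 0.5 RPKM or more. Estimated depth was 14.6 to 18.1 megareads with the antibody and 12.4 to 14.9 megareads with the isotype control. Of the set, 42 genes passed the minimum, 21 of each class, and all 49 had reads in every library. The mitosis genes Ttk, Bub1, Cenpf, Kif2c and Cenpe and the S phase genes Pole and Cdc6 averaged 0.303 to 0.47 RPKM and were described without a test. Just above the minimum stood Aurkb at 0.54 RPKM and Ndc80 at 0.587 RPKM. Islet identity was plain: none of the 12 alpha cell and 10 beta cell markers was at 0 in any library, and the alpha markers were higher with the antibody in mean log2 level (5.33 to 5.61) than with the isotype control (3.99 to 4.57), with no overlap.

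No gene of the set passed between the antibody and isotype groups. Of 42 tested, 0 rose and 0 fell in limma with Benjamini-Hochberg adjustment over all genes at 0.05, where 0.394% of all tested genes rose and 0.0149% fell, and the smallest limma adjusted p was 0.766. At an unadjusted limma p under 0.05 there were also 0 higher and 0 lower, beside 2.84% and 4.18% of all tested genes (7.02% together), and the exact permutation test per gene likewise gave 0 at an unadjusted p under 0.05, beside 7.14%. In 7 of 25 alternative settings a gene of the set did reach an unadjusted limma p under 0.05, and without isotype replicate 6 there were 3 lower (Ccnb2, Mcm2 and Mcm6), still with no adjusted call. In none of the 49 genes did the groups fail to overlap, beside 1.99% of all tested genes, 1.14% with the antibody group higher and 0.84% with it lower. The median log2 fold change was -0.07 for the 21 mitosis genes and -0.04 for the 21 S phase genes, beside -0.07 for all tested genes. Folds lay below 0 in 15 mitosis and 12 S phase genes, that is in 27 of 42, beside 66.5% of all tested genes. That count turned on single libraries. Genes above and below 0 numbered 7 and 35 without antibody replicate 2, 29 and 13 without antibody replicate 4, 8 and 34 without antibody replicate 5, 8 and 35 without isotype replicate 6, 8 and 34 without isotype replicate 7, and 32 and 9 without isotype replicate 10. They numbered 17 and 25 without antibody replicate 1, 16 and 26 without isotype replicate 9, and 21 and 21 without antibody replicate 3 or isotype replicate 8. The genes tested were 43 without isotype replicate 6 and 41 without isotype replicate 10. With median centring, genes above and below 0 numbered 24 and 18.

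Most genes of the set varied more within groups than the typical gene did. The standard deviation within groups had a median of 0.43 (log2) for the mitosis genes and 0.28 for the S phase genes, against 0.25 over all tested genes. It lay above that last value in 21 of 21 mitosis genes and 16 of 21 S phase genes. The comparison was not matched for level, and whether low read counts account for these differences was not tested. The 95% intervals of limma bound the size of a change in RPKM + 0.5 for single genes. A 1.5-fold rise lay within the interval of 12 of 42 genes, and a 1.5-fold fall within that of 16 of 42. A 2-fold rise lay within that of Mki67 alone, and a 2-fold fall within that of Ccnb2 alone. Folds in RPKM itself are understated on this scale, and the more so the lower the gene. The tested mitosis genes averaged 0.54 to 2.74 RPKM, so these counts do not exclude 2-fold changes in their RPKM.

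**Figure D1:**
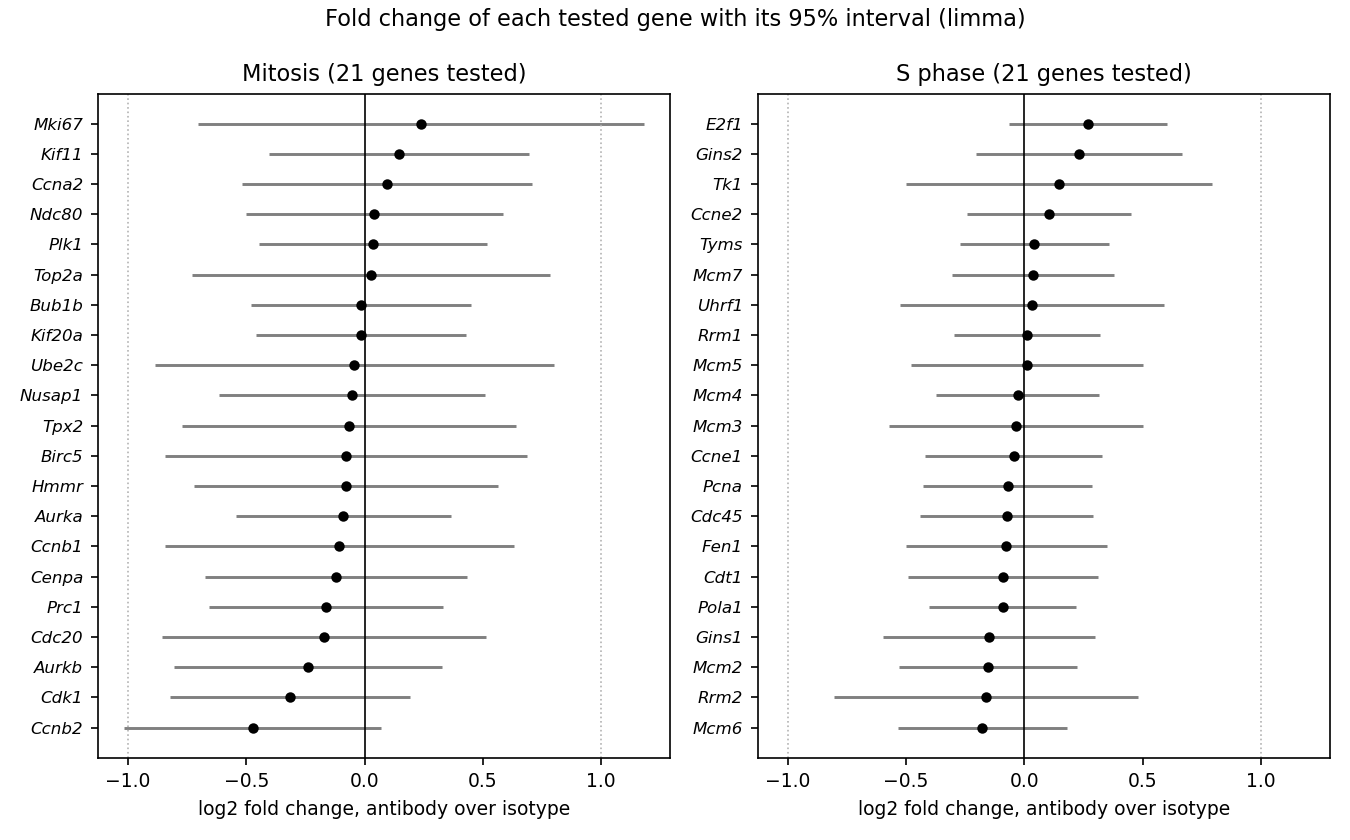
Log2 fold change (antibody over isotype, dots) with the 95% interval from limma (lines) for the 21 mitosis genes and 21 S phase genes tested. All intervals include 0, and those of the mitosis genes are wider on the median, with folds from Ccnb2 at -0.47 to Mki67 at 0.24.

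Among the mitotic cyclins and their kinase, cyclin B2 had the lowest value. Ccnb2, which activates CDK1, had 0.537, 0.877, 0.49, 0.177 and 0.822 RPKM in antibody replicates 1 to 5, against 0.409, 0.837, 1.18, 1.18 and 1.41 RPKM in isotype replicates 6 to 10. Isotype replicates 8, 9 and 10 lay above every antibody library, while isotype replicate 6 lay below 4 of the 5. Its log2 fold change was -0.47 (SE 0.25, 95% interval -1.02 to 0.07, limma adjusted p = 0.766), and an estimated 3.97 to 27.8 reads stood behind each value. The log2 fold change was -0.73 with a pseudocount of 0.1 and -0.34 with a pseudocount of 1. Cdk1, the kinase that cyclin B turns on, had 0.723, 1.37, 0.66, 0.502 and 0.963 RPKM with the antibody, against 0.578, 0.846, 1.39, 1.5 and 1.63 RPKM with the isotype control. Isotype replicates 8, 9 and 10 again lay above all antibody libraries, though antibody replicate 2 came close, and isotype replicates 6 and 7 lay among them. Its log2 fold change was -0.32 (SE 0.23, 95% interval -0.82 to 0.19, limma adjusted p = 0.85). The other cyclins of the group, Ccna2 (log2 fold change 0.09, SE 0.28) and Ccnb1 (-0.11, SE 0.34), differed by far less than their spread. Both genes were highest in antibody replicate 2 or isotype replicate 10 (Ccna2 2.36 RPKM in antibody replicate 2, Ccnb1 2.25 RPKM in isotype replicate 10).

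The usual proliferation markers were carried by a few libraries of both groups. Mki67, whose protein Ki-67 coats mitotic chromosomes, had 1.8, 2.93, 1.52, 0.99 and 7.84 RPKM with the antibody, against 1.09, 1.22, 2.62, 1.76 and 4 RPKM with the isotype control. Antibody replicate 5 was the highest library and antibody replicate 4 the lowest, so that a single group spanned 7.92-fold. The log2 fold change was 0.24 (SE 0.43, 95% interval -0.7 to 1.18, limma adjusted p = 0.945), and without antibody replicate 5 it was -0.15. Top2a, the topoisomerase that untangles replicated chromosomes, had 2.42, 3.29, 1.91, 1.23 and 5.01 RPKM with the antibody, against 1.12, 1.68, 3.14, 3.16 and 4.42 RPKM with the isotype control. Here too antibody replicate 5 and isotype replicate 10 were on top, and the group means were 2.77 ± 1.46 and 2.71 ± 1.32 RPKM (antibody and isotype, SD, n = 5 each). At a log2 fold change of 0.03 with SE 0.35 (adjusted p = 0.994 in limma) its sign turned with the library left out.

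Mitotic kinases, motors and exit genes gave the same picture. Aurkb, the kinase of the chromosomal passenger complex, had 0.664, 0.726, 0.322, 0.174 and 0.338 RPKM with the antibody, against 0.201, 0.33, 0.861, 0.789 and 0.993 RPKM with the isotype control (log2 fold change -0.24 with SE 0.26, adjusted p = 0.89 in limma). Unlike Mki67 it was low in antibody replicate 5, and with a pseudocount of 0.1 its log2 fold change was -0.38. Prc1, which bundles the microtubules of the spindle midzone, had 1.18, 1.87, 1.25, 1.37 and 2.24 RPKM with the antibody, against 1.5, 0.955, 1.85, 2.2 and 2.89 RPKM with the isotype control (log2 fold change -0.16 with SE 0.23, adjusted p = 0.921 in limma). Isotype replicate 10 was highest and isotype replicate 7 lowest, so the isotype group contained the antibody group. Ube2c, the ubiquitin-conjugating enzyme of mitotic exit, had 1.55, 3.6, 1.9, 0.761 and 3.45 RPKM with the antibody, against 1.46, 0.805, 3.03, 2.21 and 4.28 RPKM with the isotype control (log2 fold change -0.04 with SE 0.39, adjusted p = 0.992 in limma). The remaining tested mitosis genes lay between -0.17 for Cdc20, the activator that hands substrates to the same ligase, and 0.15 for Kif11, the motor that pushes spindle poles apart. Of these, Plk1, the polo-like kinase, stood at 0.741 ± 0.213 RPKM in antibody libraries and 0.74 ± 0.352 RPKM in isotype libraries (SD, n = 5 each), and Birc5, survivin, at 1.33 ± 0.891 and 1.33 ± 0.644 RPKM (antibody and isotype, SD, n = 5 each).

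S phase genes were more abundant than mitosis genes and nearer to each other between libraries. Pcna, the sliding clamp of the replication fork, was the highest per length with 37.3, 45, 31.7, 27 and 33.7 RPKM with the antibody, against 26.9, 36.4, 37.6, 36.2 and 46.8 RPKM with the isotype control. Its log2 fold change was -0.07 with SE 0.16 (adjusted p = 0.958 in limma), and the highest library had 1.74 times the lowest. Tyms, thymidylate synthase, had 28.6, 21.4, 19.9, 15.6 and 21.6 RPKM with the antibody, against 19.5, 21, 18.4, 20.4 and 23.3 RPKM with the isotype control (log2 fold change 0.04 with SE 0.14, adjusted p = 0.974 in limma). Antibody replicate 1 was on top and antibody replicate 4 lowest. A near copy, Tyms-ps, has its own row in the table, so how reads were split between them is uncertain. For comparison, the most abundant mitosis genes, Top2a, Mki67 and Ube2c, averaged 2.3 to 2.74 RPKM over the 10 libraries. PCNA also serves DNA repair, and Pcna and Tyms transcripts are not limited to S phase.

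The MCM genes encode the helicase that unwinds DNA at the fork, and none was called. Mcm6 had 6.17, 7.83, 6.62, 5.82 and 7.84 RPKM with the antibody, against 5.26, 8.01, 8.71, 7.31 and 10.4 RPKM with the isotype control (log2 fold change -0.18 with SE 0.16, adjusted p = 0.871 in limma). Mcm2 had 3.84, 4.25, 3.77, 2.9 and 3.58 RPKM with the antibody, against 2.45, 4.4, 4.66, 4.56 and 5 RPKM with the isotype control (log2 fold change -0.15 with SE 0.17, adjusted p = 0.897 in limma). In Mcm2 the isotype libraries other than replicate 6 lay above all antibody libraries, and isotype replicate 6 lay below all of them. Without isotype replicate 6 the log2 fold change was -0.31 for Mcm2 (limma adjusted p = 0.476) and -0.31 for Mcm6 (limma adjusted p = 0.568). The other helicase subunits were closer to 0, from -0.04 for Mcm3 to 0.04 for Mcm7, and Cdt1, which helps load the helicase, was at -0.09 (SE 0.18).

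E2f1 and Gins2, genes that open S phase and fire origins, had the highest folds of the class, and neither was called. E2f1, the transcription factor that turns on replication genes, had 4.89, 4.37, 4.45, 4.51 and 3.96 RPKM with the antibody, against 2.27, 3.5, 4.09, 4.34 and 4.13 RPKM with the isotype control. Antibody replicates 1 to 4 lay above all isotype libraries, and antibody replicate 5 lay among them. Its log2 fold change was 0.27 (SE 0.15, 95% interval -0.06 to 0.6, limma adjusted p = 0.775, exact permutation p = 0.0714 before adjustment). Ccne1, cyclin E, had 1.24, 1.45, 1.61, 1.12 and 1.46 RPKM with the antibody, against 0.885, 1.44, 1.24, 1.82 and 1.96 RPKM with the isotype control (log2 fold change -0.05 with SE 0.17, adjusted p = 0.977 in limma). Isotype libraries stood at both ends of that order. Gins2, a subunit of the active replicative helicase, had 1.48, 2.34, 1.27, 0.987 and 1.75 RPKM with the antibody, against 0.758, 1.24, 1.43, 1.16 and 1.65 RPKM with the isotype control (log2 fold change 0.23 with SE 0.2, adjusted p = 0.865 in limma). Its partner Gins1 pointed the other way (-0.15, SE 0.21), with an estimated 6.99 to 19 reads per library.

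Nucleotide supply and fork genes closed the class. Rrm2, the regulated subunit of ribonucleotide reductase, ranged from 1.35 to 3.28 RPKM with the antibody and from 1.41 to 4.95 RPKM with the isotype control, while Rrm1, the other subunit, ranged from 5.93 to 7.97 and from 4.86 to 8.4 RPKM. Their log2 fold changes were -0.16 (SE 0.29) for Rrm2 and 0.01 (SE 0.14) for Rrm1. Tk1, the S phase thymidine kinase, reached 2.22 RPKM in antibody replicate 2, and its lowest value was 0.399 RPKM in antibody replicate 4. Uhrf1, which carries DNA methylation through replication, was at 1.13 ± 0.446 RPKM in antibody libraries and 1.11 ± 0.501 RPKM in isotype libraries (SD, n = 5 each). The highest library exceeded the lowest by 5.57-fold in Tk1, 3.68-fold in Rrm2 and 3.46-fold in Uhrf1, but by 1.73-fold in Rrm1 and 1.67-fold in Mcm4.

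The spread lay between libraries and ran through the genes together. The mean log2 level of the 26 mitosis genes was 0.28, 0.81, 0.21, -0.04 and 0.87 in antibody replicates 1 to 5, against -0.05, 0.15, 0.69, 0.56 and 1.05 in isotype replicates 6 to 10. Each group thus held libraries near the bottom and near the top of the range, and the averages were 0.42 ± 0.40 in antibody libraries and 0.48 ± 0.44 in isotype libraries (SD, n = 5 each). The mean log2 level of the 23 S phase genes was 1.71, 1.91, 1.6, 1.37 and 1.86 in antibody replicates 1 to 5, against 1.29, 1.58, 1.8, 1.74 and 2.07 in isotype replicates 6 to 10. It averaged 1.69 ± 0.22 in antibody libraries and 1.70 ± 0.29 in isotype libraries (SD, n = 5 each). From highest to lowest, both classes ran isotype replicate 10, antibody replicates 5 and 2 (in the reverse order for S phase), isotype replicates 8 and 9, antibody replicates 1 and 3, isotype replicate 7, antibody replicate 4 and isotype replicate 6. The 2 classes were measured in the same libraries, so the shared order is a description of these libraries. Its ends were not particular to the set. Isotype replicate 10 was also highest for the further mitosis, replication and regulator genes below (0.94, 1.86 and 2.38). Isotype replicate 6 was lowest for the first 2 lists and antibody replicate 4 for the regulators. RPKM are relative to each library's total. The 10 beta cell markers summed to 472690 RPKM in isotype replicate 6, 439050 in isotype replicate 8 and 298697 in isotype replicate 10. The part of scaling was not tested.

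**Figure D2:**
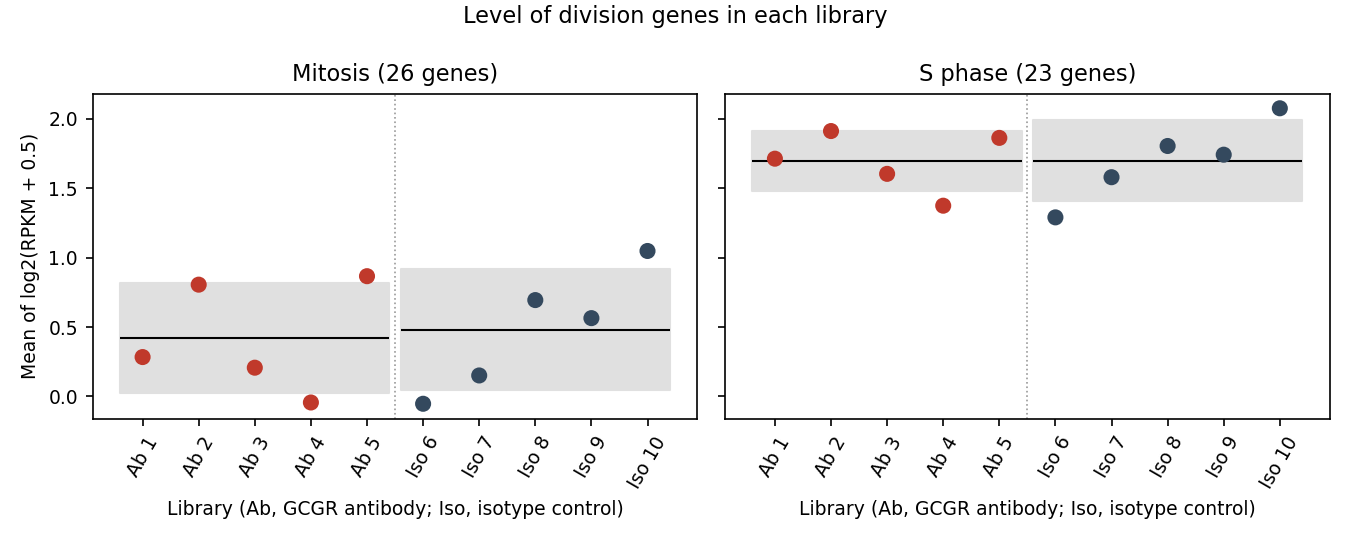
Mean log2(RPKM + 0.5) of the 26 mitosis and 23 S phase genes in each library (dots; red, antibody; dark, isotype), with the group mean (line) and 1 SD (grey band, n = 5). Antibody libraries span -0.04 to 0.87 and isotype libraries -0.05 to 1.05 for mitosis, and the same libraries are high and low for S phase.

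Single genes mostly followed that order at its ends, which is partly built in because the order is the mean of these same genes. Every one of the 26 mitosis genes had its highest value in 1 of 4 libraries, namely isotype replicate 10 (17 genes), antibody replicate 5 (7), antibody replicate 2 (1) and isotype replicate 8 (1). The lowest value of 25 of the 26 fell in antibody replicate 4 (10 genes) or isotype replicate 6 (15). Of the 26 genes, those above their own median over the 10 libraries numbered 25 in antibody replicate 2, 23 in antibody replicate 5, 1 in antibody replicate 4, 26 in isotype replicates 8 and 10, and 0 in isotype replicate 6. S phase genes were looser, with 14 of 23 highest in isotype replicate 10 and 19 of 23 lowest in antibody replicate 4 or isotype replicate 6. Isotype replicate 10 was also highest for 25 of 57 further mitosis genes, 22 of 52 further replication genes and 12 of 30 cell cycle regulators. The share over all tested genes was not counted, so these counts are not shown to be particular to the set. The highest library exceeded the lowest by 2.42-fold (Kif20a) to 8-fold (Birc5) in mitosis genes, with a median of 4.72-fold, and by a median of 2.15-fold in S phase genes. In 10 of the 23 S phase genes, but in 0 of the 26 mitosis genes, the ratio was under 2.

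**Figure D3:**
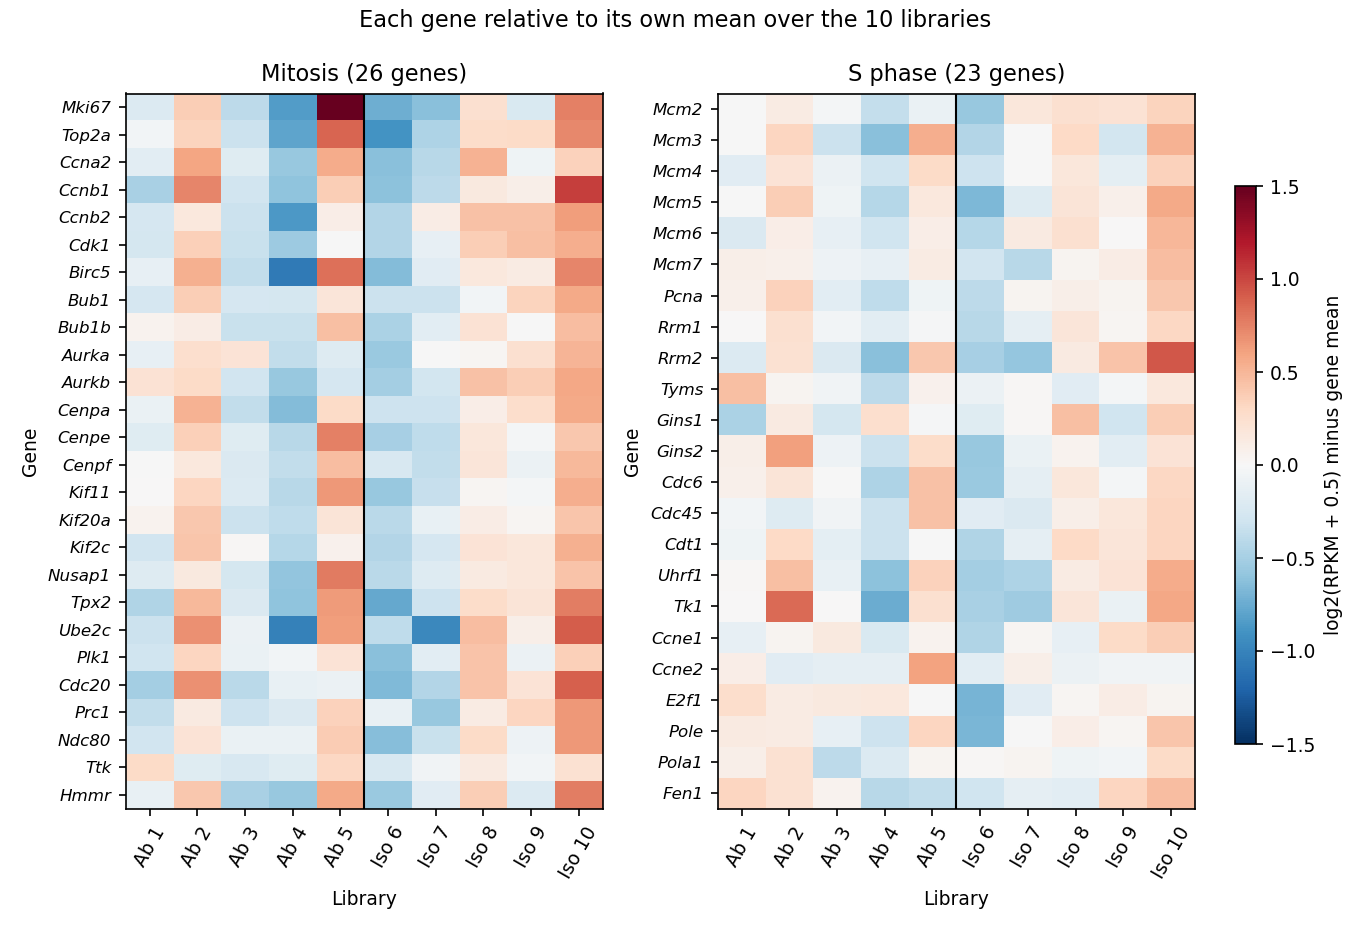
Log2(RPKM + 0.5) of each gene minus its mean over the 10 libraries (red above, blue below; values beyond 1.5 share the end colour), with antibody libraries left of the black line and isotype libraries right of it. Antibody replicates 2 and 5 and isotype replicates 8 and 10 are red through most mitosis genes, and antibody replicate 4 and isotype replicate 6 are blue.

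Mitosis genes moved further than S phase genes from library to library. The S phase mean exceeded the mitosis mean by 1.43, 1.11, 1.4, 1.42 and 0.996 (log2) in antibody replicates 1 to 5, against 1.34, 1.43, 1.11, 1.18 and 1.03 in isotype replicates 6 to 10. The gap was narrow where mitosis genes were high and wide where they were low, in both groups. Antibody replicates 2 and 5 also differed from each other: 13 of 26 mitosis genes were higher in replicate 5, among them Mki67 at 7.84 against 2.93 RPKM. Cdc20 stood at 0.834 RPKM in replicate 5 and 1.78 RPKM in replicate 2.

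Markers of other cell types differed between the same libraries, and their part in the spread was not tested. Antibody replicate 2 and isotype replicate 8 had the highest mean log2 levels of 10 macrophage markers (4.15 and 4.04; the others 1.78 to 3.18) and of 10 mesenchymal markers (3.30 and 3.29; the others 1.01 to 2.41). Antibody replicate 5 held the highest value of all 12 lymphocyte markers, with a mean log2 level of 1.99 against 0.75 in the next library, isotype replicate 10; its summed RPKM of these markers was 68.8, where the isotype libraries reached 30.4. The B cell gene Cd79a was at 31.6 RPKM in antibody replicate 5 and at 20.7 RPKM in isotype replicate 6, whose mean log2 level of the 12 lymphocyte markers was 0.60. Isotype replicate 10 was highest in the 12 ductal markers (3.72; the others 2.98 to 3.67) and lowest in the 12 alpha cell markers and the 10 endothelial markers (1.30; the others 1.62 to 2.50). The 10 beta cell markers were lowest in antibody replicate 5 (9.74) and highest in isotype replicate 6 (10.5). Antibody replicate 4 was lowest in macrophage and mesenchymal markers, and isotype replicate 6 in ductal markers. The 14 acinar markers were highest in isotype replicates 8 and 10 and antibody replicate 5 (7.96, 7.85 and 7.69). The other libraries ran from 6.04 in isotype replicate 9 to 7.63 in isotype replicate 6, with antibody replicate 2 at 6.235. The 5 Schwann cell markers were highest in isotype replicate 10 (1.16) and lowest in isotype replicate 6 (0.17). Summed macrophage markers ran from 85.5 to 749.9 RPKM with the antibody and from 119.1 to 630.6 RPKM with the isotype control; none of the macrophage, mesenchymal, endothelial or lymphocyte markers was at 0 in any library, and 1 ductal marker was at 0 in isotype replicate 6.

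**Figure D4:**
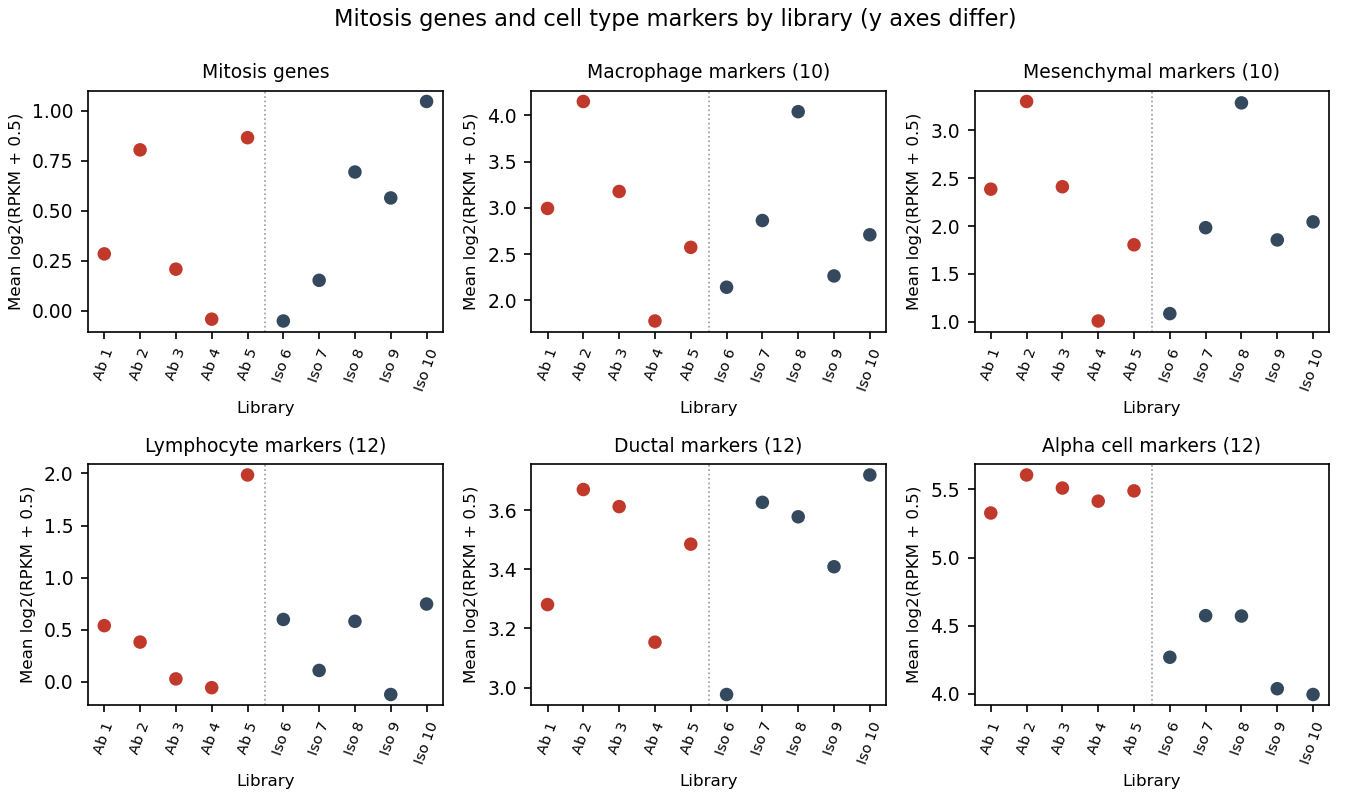
Mean log2(RPKM + 0.5) by library for the mitosis genes and for macrophage, mesenchymal, lymphocyte, ductal and alpha cell markers (red, antibody; dark, isotype; y axes differ). Alpha cell markers separate the groups, whereas mitosis genes and the other markers overlap between them.

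Other genes of the division machinery were read from lists of the same kind. Of 57 further mitosis genes measured, 33 were tested, and 1 rose and 0 fell, while at an unadjusted limma p under 0.05 there were 4 higher and 0 lower, beside 2.84% and 4.18% of all tested genes; of 43 tested further replication genes and 29 tested cell cycle regulators, 0 rose and 0 fell, and none reached an unadjusted limma p under 0.05. The medians were -0.00, -0.05 and -0.05 on the log2 scale, beside -0.07 for all genes. The riser was Cit, citron kinase, which acts in the final separation of daughter cells and is also known from nerve cells. It had 0.943, 1.22, 1.27, 1.27 and 1.76 RPKM with the antibody, against 0.548, 0.526, 0.528, 0.457 and 0.383 RPKM with the isotype control. The groups did not overlap, with all antibody values on the upper side, as in 1.14% of all tested genes. The log2 fold change was 0.84 with SE 0.15 (adjusted p = 0.0383 in limma). The isotype values of Cit, 0.383 to 0.548 RPKM, lay about the minimum of 0.5 RPKM, and the antibody values lifted its average past it. With no filter on low values the limma adjusted p was 0.0337. The order of libraries was not that of the mitosis genes, since isotype replicate 10 was the lowest. Cit was no longer called in 13 of 24 other settings, while the log2 fold change stayed between 0.61 and 1.22. Of the 13, 9 were the fits that each left out a library other than antibody replicate 1. Another was the exact permutation test, which called no gene at all.

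The next genes of these lists had smaller differences that did not pass. Zwint, a kinetochore gene, stood at 116 ± 13.4 RPKM in antibody libraries and 95.1 ± 7.29 RPKM in isotype libraries (SD, n = 5 each), a log2 difference of 0.28 with SE 0.11 (adjusted p = 0.629 in limma). Smc4, a condensin subunit, had a log2 fold change of 0.36 with SE 0.15 (adjusted p = 0.664 in limma). Rfc3 (0.21, SE 0.10) and Rfc4 (-0.31, SE 0.16), subunits of the clamp loader, pointed apart, and Orc6 of the origin recognition complex was at 0.22 (SE 0.11). Among the regulators, E2f6, a repressor of the E2F family, was at -0.33 (SE 0.15), E2f5 at -0.18 (SE 0.11) and Lin9, a subunit of the complex that binds CHR elements, at 0.22 (SE 0.15). For these 6 genes the adjusted p in limma lay between 0.717 and 0.83. Zwint and Orc6 were far above the level of the mitosis genes, at 85.5 to 133.5 and 8.53 to 13 RPKM over the 10 libraries.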

How the data were processed

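RNA was extracted from islets for 5 antibody and 5 isotype libraries, and polyadenylated RNA was made into Nextera XT libraries, per the labels' protocols; this kit does not mark strand. The authors deposited RPKM per gene; CASAVA 1.8.2 and FastQC are named in the submitters' processing notes, and for the aligner, the counter and the annotation, a name is not given in the sources used here. Reads from overlapping genes on opposite strands cannot be told apart. Depth was estimated from the steps between low RPKM values; 68.0% to 70.6% of low values came within 0.1 of a whole read, too few for a count test.

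Genes averaging 0.5 RPKM or more were tested with limma 3.58.1 (R 4.3.3, variance trend, log2(RPKM + 0.5), Benjamini-Hochberg adjustment over all 13450 genes, threshold 0.05); the test was checked on simulated data. The exact permutation test over libraries was two-sided, and the smallest p it allows is 0.00794. The members and lists were chosen with earlier results of these data known. Named with all values were any called gene, the 4 genes of each class with the smallest unadjusted limma p, the 3 with the highest mean RPKM, and Mki67, Top2a, Cdk1, Mcm2, Pcna and Ccne1; from the other lists, any called gene and up to 3 with the smallest p. Promoter windows came from RefSeq for GRCm38.p6 and were matched by gene. Where a gene of the set had several windows (Prc1, Fen1, Mcm7 and Uhrf1), an element in any of them counted. Alternatives were other pseudocounts, filters, scalings, marker covariates and each library left out.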

Additional observations from a re-analysis of the deposited data

Results flagged for a closer look

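Of 132 groups of 5 libraries checked for a single library standing apart, 98 belonged to members, and chance flags about 1 in 20. In Mcm2 the lowest isotype library, replicate 6 at 2.45 RPKM, stood apart from the others by 0.814 of the group's range, past the Dixon limit at 95%. In the acinar markers the lowest isotype library was replicate 9, with a mean log2 level of 6.04 and a gap of 0.811 of the range.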

How the results depend on the processing

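The exact permutation test called 0 of all tested genes, so its lack of calls in the set adds nothing. Counting it, no gene of the set was called in 25 alternative settings, and the smallest limma adjusted p ran from 0.327 to 0.9998. In 7 of them a gene reached an unadjusted p under 0.05: E2f1 higher with median centring and quantile scaling; Ccnb2 lower with quantile scaling, array weights, ductal, macrophage and mesenchymal covariates and without isotype replicate 6, where Mcm2 and Mcm6 were lower too. The mitosis median lay between -0.21 and 0.10 with a library left out and the S phase median between -0.13 and 0.05. Genes above and below 0 numbered 15 and 27; they were 24 and 18 with median centring, which shifted all genes by 0.07, 18 and 24 with quantile scaling, and, with 1 library left out, between 7 and 35 (without antibody replicate 2) and 32 and 9 (without isotype replicate 10). At a minimum of 5 RPKM no mitosis gene remained. Signs near 0 turned, and the cause was not tested: with median centring Ccne1 (0.0262), Pcna (0.0006) and Ube2c (0.0278); with quantile scaling Ube2c (0.0194); with array weights Ccne1 (0.0019), Top2a (-0.0104) and Ube2c (0.27); with an acinar covariate Tyms (-0.0166); with macrophage (-0.0129), lymphocyte (-0.0879) and mesenchymal (-0.0236) covariates, chosen after seeing the data, Top2a; and without antibody replicate 5 and isotype replicate 10 together Ccne1 (0.0231), Pcna (0.0275), Top2a (-0.007) and Ube2c (0.014). Leaving out 1 library at a time gave -0.17 to 0.0413 for Ccne1, -0.15 to 0.48 for Mki67, -0.18 to 0.0195 for Pcna, -0.19 to 0.23 for Top2a, -0.0662 to 0.15 for Tyms and -0.29 to 0.20 for Ube2c. No paired analysis was possible because the groups share no replicate numbers. Depth limits the low genes: Ccnb2 rested on as few as 3.97 estimated reads.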
